A study of Mus musculus with 8 samples.

Results

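B cell receptor signalling was followed through 36 genes, listed by mouse symbol: the receptor's signal chains and co-receptors, the kinases next to it, the adaptors, the enzymes they recruit, and the receptors and enzymes that restrain the signal. All 36 were found among the 37583 Ensembl gene identifiers of the count files, and all 36 were among the 13964 genes that passed the filter on low counts. By their textbook roles 20 were classed as activators, 10 as inhibitors and 6 as genes with both roles. RNA came from splenic B cells of C57BL/6 mice (strain B6 in the labels), sequenced in 8 libraries. Naive B cells made up the first group, with 3 libraries. A second group, called CpG, had 3 libraries of B cells stimulated for 3 days with CpG ODN1668, a DNA oligonucleotide that triggers the endosomal receptor TLR9. The third, called TLR, had 2 libraries of B cells that received the same CpG stimulation and, over its last 5 hours, also LPS (a TLR4 ligand), PMA (which activates protein kinase C) and ionomycin (which lets calcium into the cell). The labels call the stimulated cells Bregs-CpG and Bregs-TLR, and name neither an antigen nor an antibody to immunoglobulin among the stimuli. They do not give the age, sex or number of mice, nor say whether the libraries of a group came from separate mice or cultures, so the p-values reflect the spread among these libraries, which may be technical.

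The B cell receptor is a membrane immunoglobulin that cannot signal alone and relies on the paired chains CD79A and CD79B. Kinases of the Src family phosphorylate these chains, SYK docks on them, and SYK and BTK then drive phospholipase C gamma 2, assembled on the adaptor BLNK, while phosphoinositide 3-kinase is recruited through co-receptors and adaptors. The calcium and diacylglycerol that follow reach NFAT, Ras and, through protein kinase C beta and the complex that holds BCL10 and MALT1, NF-kB. Inhibitory receptors such as CD22, CD72 and FcγRIIB carry motifs that recruit the phosphatases SHP-1 (Ptpn6) and SHIP-1 (Inpp5d), which keep B cells from responding too readily. PMA and ionomycin act below the receptor, on the diacylglycerol and calcium branches.

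Counts assigned to genes summed to between 15804311 and 20069272 per library, so that 1 count was worth 0.0498 to 0.0633 CPM (counts scaled to a common library size and composition). Multiply aligned reads took 14.7% to 50.2% of a file's total and were highest in replicate 1 of each group, whose files carry another prefix in their names than the rest. What the prefix stands for is not given in the labels. Every member called in a comparison had the same sign of change within both prefixes: 20 of 20 for CpG against naive, 33 of 33 for TLR against CpG and 31 of 31 for TLR against naive. The calls were made on these same libraries, with 1 TLR library per prefix, so this agreement was largely given by the calls. Of the members not called, Cd79a, Cd79b, Plcg2 and Csk differed in sign between the prefixes in CpG against naive. Cd81, Pik3cd and Fcgr2b did so in TLR against naive. The 8 B cell markers summed to 21346 to 22310 CPM in naive, 12041 to 18236 CPM in CpG and 8053 to 8383 CPM in TLR libraries, and 6 of the 8 were called lower at the final step, among them Ms4a1 (CD20), with Ebf1 falling only by 0.49 on the log2 scale. All 7 tested T cell markers and all 7 natural killer cell markers were lower with CpG, from sums of at most 21.7 and 67.4 CPM in naive to at most 1.71 and 2.99 CPM in the other libraries. The plasma cell genes summed to 1603 CPM in naive replicate 1, 529 and 533 CPM in the other naive libraries, 1169 to 1285 CPM in CpG and 550 to 643 CPM in TLR libraries. Of the 5 tested, Prdm1 (8.85-fold), Mzb1 (3.21-fold) and Xbp1 (2.15-fold) rose with CpG and Sdc1 fell, and at the final step Sdc1 rose 6.20-fold while Prdm1 and Mzb1 fell 5.20-fold and 4.71-fold. The 12 macrophage and monocyte markers summed to 1243 CPM in naive replicate 1, 304 and 177 CPM in the other naive libraries and 12.8 to 37.6 CPM after culture. All 12 were lower with CpG. Most of the T cell and natural killer cell markers passed the low-count filter only through naive libraries, as did some macrophage markers such as Mertk and Cd163. Their calls as lower were thus largely given by the filter. The part of these other cell types in the members' values was not tested. In these bulk libraries, fewer cells of a type and less RNA per cell cannot be told apart.

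Most of the 36 genes were lower after the last 5 hours of stimulation, inhibitors and activators alike, whereas 3 days of CpG had moved them in both directions. A gene counts as changed, or called, where edgeR's quasi-likelihood test gave an adjusted p under 0.05 over all 13964 genes. In CpG against naive cells, 8 members were higher and 12 lower, where 23.5% of all tested genes were higher and 21.9% lower, and the members' median log2 fold change was -0.03 (0.01 over all genes; single log2 fold changes are given ± SE throughout). The rises, 22.2% of the members, were near the background, and the falls were 33.3% of them. In TLR against CpG cells, 31 members were lower and 2 higher, where 19.8% of tested genes were lower and 19.0% higher. The falls of 23 members were at least 2-fold, which held for 11.6% of all tested genes, and the median log2 fold change was -1.29 against -0.02 over all genes. In TLR against naive cells, 29 members were lower and 2 higher, where 29.7% of tested genes were lower and 31.6% higher, with a median of -1.33 (0.01 over all genes). The first and the second comparison share the CpG libraries, and the third shares libraries with both, so the 3 sets of values are not independent of each other.

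**Figure D1:**
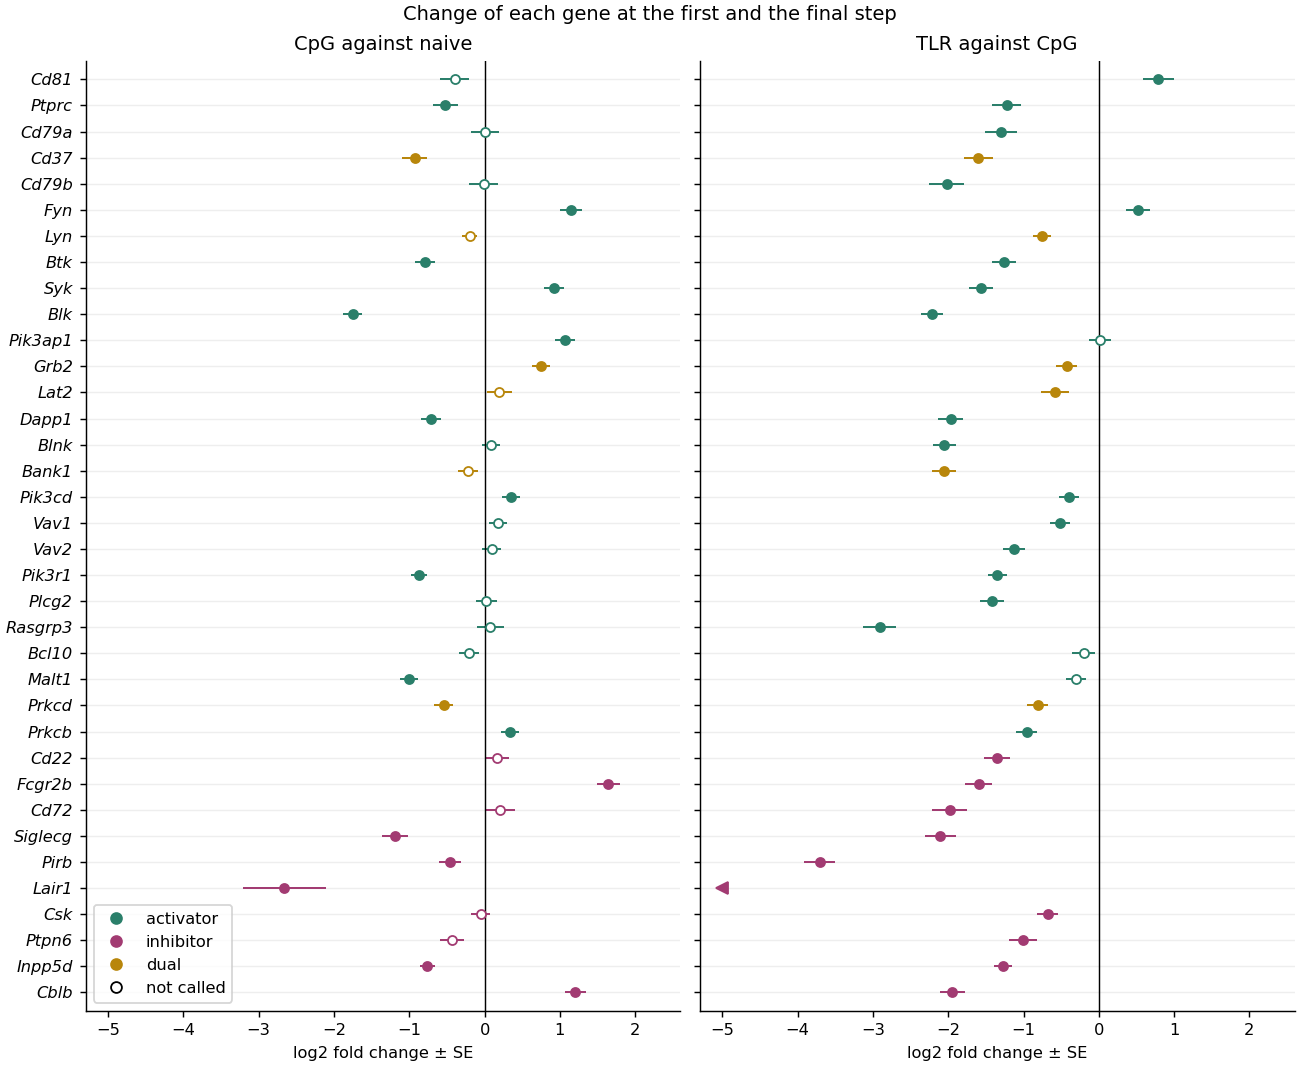
Log2 fold change of each of the 36 genes with its SE, CpG against naive on the left and TLR against CpG on the right, ordered by role from the receptor chains at the top to the inhibitory enzymes at the bottom; filled points were called at an adjusted p below 0.05. On the left 8 genes were called higher and 12 lower; on the right 31 were called lower and 2 higher. Lair1, with 0 counts in the TLR libraries, is drawn as a triangle at the left edge.

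The choice of members did not use their promoters. Members with few CG dinucleotides in the promoter all fell at the final step, whereas those with many went different ways, most of them also falling. Promoters of 300 bases, from 250 before to 50 after the start site, were taken from RefSeq (GRCm38.p6), which held an entry for 31 of the 36 members (not for Cd79b, Lyn, Blk, Malt1 and Lat2). The highest count over a gene's listed promoters was used. All 18 members with fewer than 10 CG dinucleotides were called lower in TLR against CpG (median log2 fold change -1.60), as were the 3 members with 10 to under 20. Of the 10 members with 20 or more, 6 were lower, 2 were higher (Fyn with 31 CG dinucleotides and Cd81 with 23) and 2 were not called (Pik3ap1 and Bcl10, each with 26). Over all tested genes with a listed promoter, the same bins gave 30.3% lower among 1618 genes (median -0.51), 21.7% lower among 2552 genes (median -0.03) and 17.4% lower among 5745 genes (median 0.09). Among the 6 lower members with 20 or more, Pik3r1 with 34 and Syk with 31 fell by 1.35 and 1.56 on the log2 scale. This pattern was seen after the values were known and is a description.

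**Figure D2:**
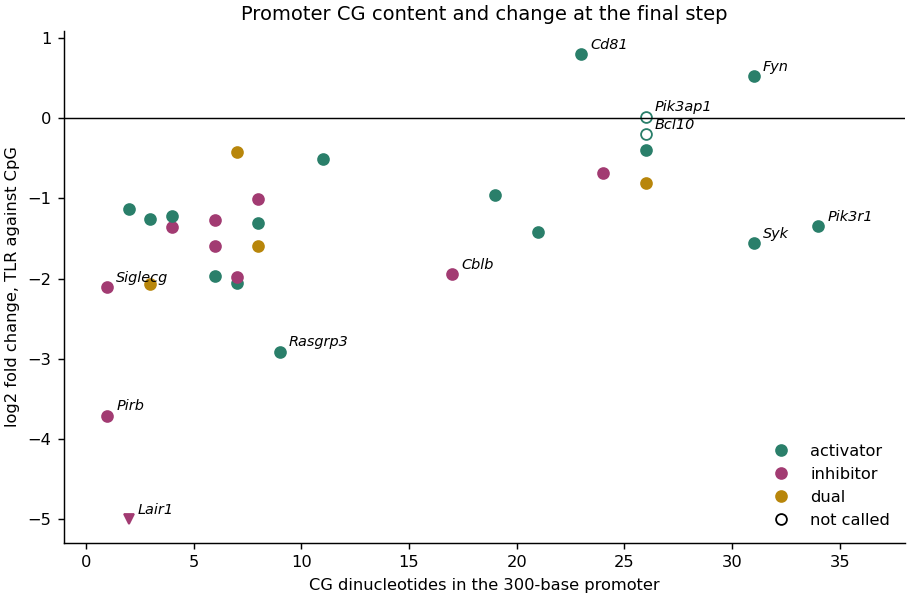
Number of CG dinucleotides in the 300-base RefSeq promoter (horizontal axis, highest over a gene's promoters) and log2 fold change in TLR against CpG (vertical axis) for the 31 members with an entry, coloured by class, filled where called. All 18 genes with fewer than 10 CG dinucleotides lie below 0; Lair1, with 0 counts in the TLR libraries, is drawn as a triangle at the lower edge.

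Promoters of 4 genes that fell at the final step and of 2 that did not are printed 5′ to 3′ on the gene's strand, as examples. The first 4 were picked among the falling genes that carry the letters marked below. Different letters are marked in the 2 kinds, so the printed sequences do not compare them. In the first 4, capitals mark the letters GAGGAAGT (or their reverse complement), a site of the type bound by PU.1, a transcription factor of B and myeloid cells; in the last 2, capitals mark every CG dinucleotide. The Rasgrp3 promoter, 1 of 2 listed for the gene, lies at chr17:75435655-75435954 on the plus strand, Pirb at chr7:3720333-3720632 on the minus strand, Cd72 at chr4:43454577-43454876 on the minus strand, Inpp5d at chr1:87620062-87620361 on the plus strand, Fyn at chr10:39369549-39369848 on the plus strand and Pik3ap1 at chr19:41385053-41385352 on the minus strand.
Rasgrp3: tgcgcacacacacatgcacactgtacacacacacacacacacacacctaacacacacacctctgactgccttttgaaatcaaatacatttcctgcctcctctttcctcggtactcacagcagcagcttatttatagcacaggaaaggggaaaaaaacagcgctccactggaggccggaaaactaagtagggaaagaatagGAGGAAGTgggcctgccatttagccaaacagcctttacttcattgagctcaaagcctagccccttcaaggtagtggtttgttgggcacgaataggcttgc
Pirb: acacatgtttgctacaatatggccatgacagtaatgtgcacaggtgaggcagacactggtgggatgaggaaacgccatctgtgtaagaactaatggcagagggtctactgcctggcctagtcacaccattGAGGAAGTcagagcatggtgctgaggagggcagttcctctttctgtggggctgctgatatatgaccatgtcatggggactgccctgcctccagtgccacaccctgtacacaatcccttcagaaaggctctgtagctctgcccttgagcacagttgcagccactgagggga
Cd72: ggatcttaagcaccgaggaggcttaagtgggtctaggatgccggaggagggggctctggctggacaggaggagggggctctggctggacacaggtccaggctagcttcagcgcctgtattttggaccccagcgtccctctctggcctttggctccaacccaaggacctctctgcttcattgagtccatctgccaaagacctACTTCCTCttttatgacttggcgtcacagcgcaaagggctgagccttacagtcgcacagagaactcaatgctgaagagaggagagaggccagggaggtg
Inpp5d: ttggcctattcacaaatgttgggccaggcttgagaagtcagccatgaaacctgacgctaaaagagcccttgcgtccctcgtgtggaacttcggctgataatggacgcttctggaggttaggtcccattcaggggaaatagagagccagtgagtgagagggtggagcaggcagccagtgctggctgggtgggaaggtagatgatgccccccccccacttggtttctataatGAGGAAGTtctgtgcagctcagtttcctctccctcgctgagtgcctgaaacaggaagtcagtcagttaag
Fyn: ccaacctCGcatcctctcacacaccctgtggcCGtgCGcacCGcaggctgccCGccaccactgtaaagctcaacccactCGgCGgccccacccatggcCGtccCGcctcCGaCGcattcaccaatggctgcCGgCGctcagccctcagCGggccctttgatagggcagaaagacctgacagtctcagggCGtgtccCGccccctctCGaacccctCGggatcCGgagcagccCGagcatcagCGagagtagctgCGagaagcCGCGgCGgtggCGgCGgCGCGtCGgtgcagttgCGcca
Pik3ap1: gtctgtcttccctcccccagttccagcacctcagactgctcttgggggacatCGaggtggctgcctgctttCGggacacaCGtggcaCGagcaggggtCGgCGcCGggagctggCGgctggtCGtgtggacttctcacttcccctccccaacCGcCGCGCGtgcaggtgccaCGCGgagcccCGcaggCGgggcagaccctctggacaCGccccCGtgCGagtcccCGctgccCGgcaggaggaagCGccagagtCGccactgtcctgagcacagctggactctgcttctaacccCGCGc

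The PU.1 letters began at position -50 from the start site in Rasgrp3, -120 in Pirb, -49 in Cd72 (on the reverse strand) and -20 in Inpp5d. They were present in 7 of the 31 promoter sets (22.6%: Vav1, Cd72, Inpp5d, Grb2, Rasgrp3, Cd37 and Pirb), compared with 3.69% of the 27025 genes with a listed promoter and 3.96% of the tested ones. All 7 genes were called lower at the final step, as were most members without the letters. Of 7 motifs searched on both strands, the EBF1 letters CCCNNGGG were found in 25.8% of members and 21.2% of tested genes, the octamer ATTTGCAT in 6.45% and 1.58%, the E-box CAGCTG in 22.6% and 17.9%, the NFAT letters TGGAAA in 6.45% and 19.5%, and the CREB letters TGACG in 9.68% and 35.4%. The NF-kB letters GGGACTTTC were in none of the members' promoters and in 0.484% of those of tested genes. The PU.1 and NFAT letters share GGAA. A match describes the letters in this window and is not evidence of binding.

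Among the receptor chains and co-receptors, the level of both signal chains did not move beyond the spread between libraries over 3 days of CpG and fell at the final step. Cd79a had 1225, 1446 and 1343 CPM in the naive libraries, 1764, 1207 and 1061 CPM in the CpG libraries and 553 and 536 CPM in the TLR libraries. Its CpG libraries spanned the naive ones, and both TLR libraries lay below all others, 2.47-fold lower than CpG (log2 fold change -1.30 ± 0.21, adjusted p = 0.00107). Cd79b, its partner, had 2129, 2002 and 2016 CPM in the naive libraries, 2752, 1723 and 1622 CPM in the CpG libraries and 488 and 516 CPM in the TLR libraries. It fell 4.05-fold at the final step (log2 fold change -2.02 ± 0.23, adjusted p = 0.000137). Reads of Cd79b per read of Cd79a were 1.54 ± 0.18 in naive (SD, n = 3), 1.51 ± 0.07 in CpG (n = 3) and 0.923 ± 0.058 in TLR libraries (n = 2). The fall was the larger for Cd79b, with no overlap between TLR and the other libraries. Ptprc (CD45), the phosphatase that keeps Src family kinases ready to act, had 1940.3, 2269 and 2244 CPM in the naive libraries, 1306, 1556 and 1634 CPM in the CpG libraries and 525 and 759 CPM in the TLR libraries. It fell at both steps, by -0.52 ± 0.16 and -1.22 ± 0.19 on the log2 scale, although the first call (adjusted p = 0.0264) was lost without naive replicate 2 or 3 or CpG replicate 1 or 2.

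The tetraspanins of the list went opposite ways at the final step. Cd37, a tetraspanin of mature B cells with both roles here, had 1937, 1999 and 1929 CPM in the naive libraries, 1281, 983 and 813 CPM in the CpG libraries and 336 and 341 CPM in the TLR libraries. The 3 groups did not overlap, and the log2 fold changes were -0.93 ± 0.16 (adjusted p = 0.00136) and then -1.60 ± 0.19 (adjusted p = 0.000167). Cd81, a tetraspanin of the B cell co-receptor complex, had 204, 177 and 179 CPM in the naive libraries, 150.1, 133 and 142 CPM in the CpG libraries and 317 and 174 CPM in the TLR libraries. It was called higher at the final step (log2 fold change 0.79 ± 0.21, adjusted p = 0.0143), but 1 TLR library stood far above the other, and without TLR replicate 1 the change was 0.29 with an adjusted p of 0.196. With CpG it was not called (log2 fold change -0.40 ± 0.19, adjusted p = 0.116), although the CpG libraries lay below all naive ones and the fall passed the threshold in 6 of 18 alternative analyses. In TLR against naive cells it was not called (0.39 ± 0.21). Exons of Cd81 and of Cd37 overlap those of a gene on the opposite strand (104 and 13 bases), and the counting ignored strand.

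The kinases split by family member. Syk, which docks on the phosphorylated signal chains, rose 1.89-fold with CpG and then fell below its naive level, with 1417, 1649.5 and 1832 CPM in the naive libraries, 3292, 2809 and 3177 CPM in the CpG libraries and 1025 and 1072 CPM in the TLR libraries. Neither the rise (log2 fold change 0.92 ± 0.14, adjusted p = 0.000529) nor the fall (log2 fold change -1.56 ± 0.16, adjusted p = 6.93e-05) left any overlap between groups. Btk, the kinase upstream of phospholipase C gamma 2, fell at both steps, with 364, 376 and 370.4 CPM in the naive libraries, 203, 222 and 217 CPM in the CpG libraries and 74.0 and 105 CPM in the TLR libraries. This made it 4.14-fold lower in TLR than in naive cells (log2 fold change -2.05 ± 0.16, adjusted p = 4.52e-06).

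Of the Src family kinases, Blk and Fyn moved in opposite directions throughout. Blk, a kinase largely restricted to B cells, had 709, 672 and 622 CPM in the naive libraries, 214, 208 and 172 CPM in the CpG libraries and 41.9 and 43.2 CPM in the TLR libraries. It fell 3.37-fold and then 4.65-fold, 15.7-fold in all (log2 fold change -3.97 ± 0.16, adjusted p = 1.90e-07). Fyn, the relative best known from T cells, had 97.0, 71.5 and 80.5 CPM in the naive libraries, 185, 161 and 206 CPM in the CpG libraries and 247 and 281 CPM in the TLR libraries. Its rise with CpG was 2.21-fold (log2 fold change 1.15 ± 0.14, adjusted p = 0.000200), and a further rise at the final step (log2 fold change 0.52 ± 0.16, adjusted p = 0.0246) was not called without CpG replicate 2, TLR replicate 1 or TLR replicate 2. The reads of Fyn per read of Blk went from 0.124 ± 0.016 in naive to 0.945 ± 0.22 in CpG (n = 3 each) and 6.20 ± 0.44 in TLR libraries (n = 2), and the groups did not overlap. Lyn, the main Src family kinase of B cells and one that starts both the activating and the inhibitory pathways, ranged from 493 to 529 CPM in naive, 424 to 470 CPM in CpG and 264 to 266 CPM in TLR libraries. It was called lower at the final step only (log2 fold change -0.75 ± 0.12, adjusted p = 0.000744).

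**Figure D3:**
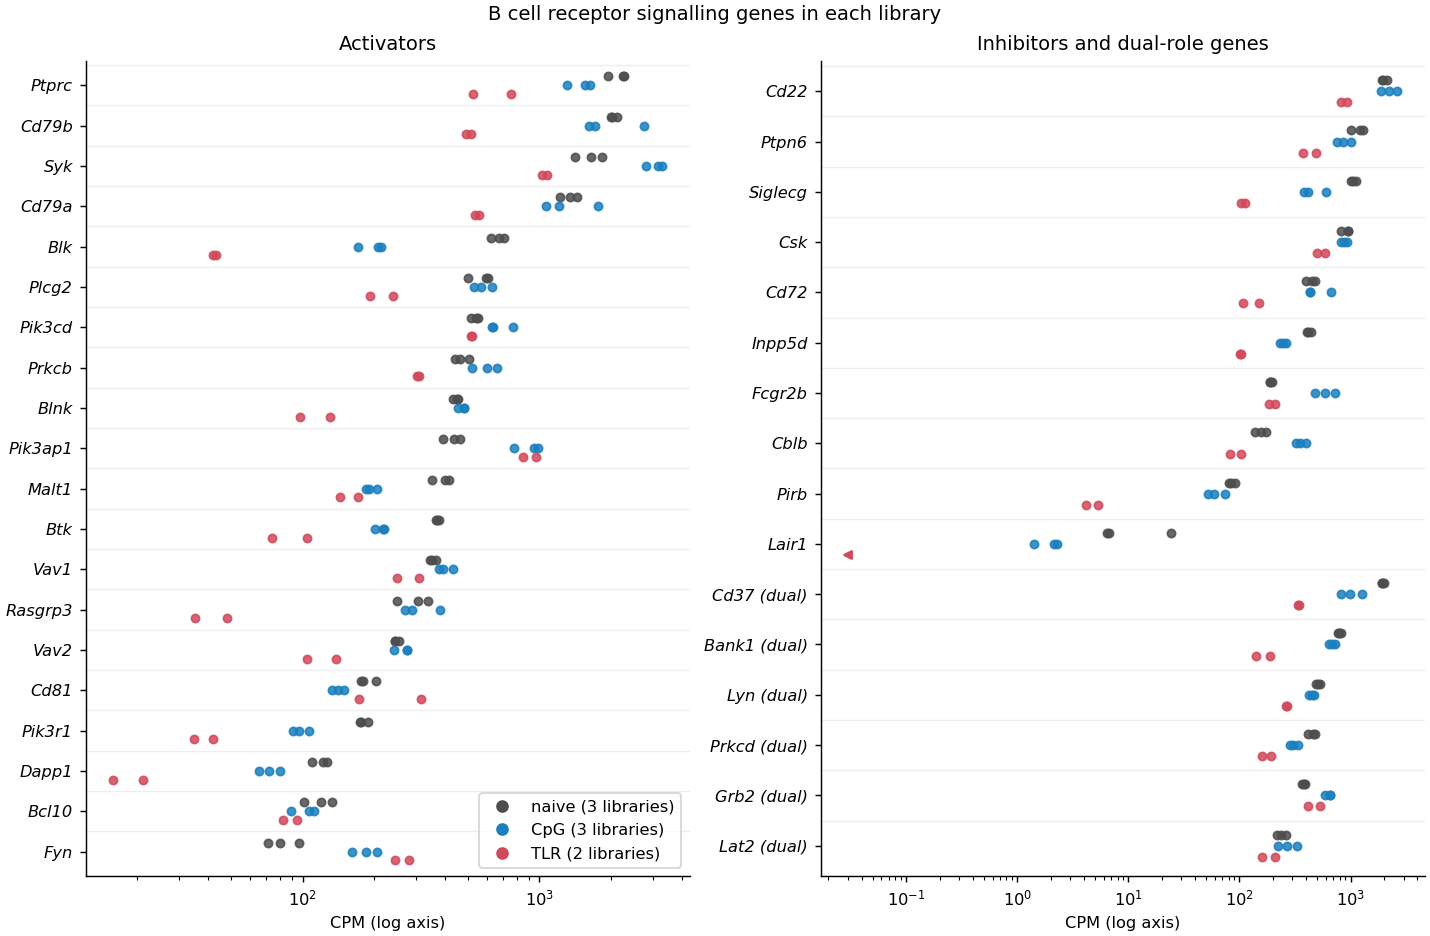
Level of each of the 36 genes in each library in CPM on a log axis, activators on the left, inhibitors and dual-role genes on the right, 1 point per library (3 naive, 3 CpG, 2 TLR). The TLR points lie lowest for most genes. Exceptions are Fyn, with 247 and 281 CPM, Cd81, Pik3ap1 and Grb2, and also Fcgr2b, Pik3cd and Bcl10, whose TLR points overlap those of another group. The 2 TLR libraries with 0 counts of Lair1 are drawn as a triangle at the left edge.

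Among the adaptors, Pik3ap1 and Blnk parted. Pik3ap1 (BCAP), which links the receptor and Toll-like receptors to phosphoinositide 3-kinase, had 391, 463 and 435 CPM in the naive libraries, 782, 945 and 983 CPM in the CpG libraries and 856 and 970.2 CPM in the TLR libraries. It rose 2.10-fold with CpG (log2 fold change 1.07 ± 0.13, adjusted p = 0.000194), and its TLR libraries lay within the range of the CpG ones (log2 fold change 0.02 ± 0.15, adjusted p = 0.949). Blnk (SLP-65), the scaffold for BTK and phospholipase C gamma 2, had 432, 450.0 and 453 CPM in the naive libraries, 481, 454 and 481 CPM in the CpG libraries and 97.5 and 130.2 CPM in the TLR libraries. It fell 4.14-fold at the final step (log2 fold change -2.05 ± 0.15, adjusted p = 1.24e-05). Reads of Pik3ap1 per read of Blnk thus went from 0.964 ± 0.062 in naive to 1.92 ± 0.25 in CpG (n = 3 each) and 8.12 ± 0.94 in TLR libraries (n = 2).

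Bank1, a B cell scaffold with both roles that binds LYN and PLCG2, had 779, 825 and 783 CPM in the naive libraries, 687, 726 and 639.6 CPM in the CpG libraries and 139.9 and 188 CPM in the TLR libraries. Between CpG and naive it was not called (log2 fold change -0.22 ± 0.13, adjusted p = 0.204), and at the final step it fell 4.18-fold (log2 fold change -2.06 ± 0.16, adjusted p = 1.54e-05). Dapp1 (BAM32), which binds the lipid made by phosphoinositide 3-kinase, had 109, 122 and 126 CPM in the naive libraries, 80.2, 65.4 and 71.9 CPM in the CpG libraries and 15.9 and 21.2 CPM in the TLR libraries. It fell at both steps and reached 6.43-fold below naive (log2 fold change -2.69 ± 0.17, adjusted p = 1.28e-06). The other dual-role adaptors, Grb2 and Lat2, moved less than Bank1 at the final step. Grb2, which links receptors to Ras and in B cells also to inhibition, was higher with CpG (log2 fold change 0.75 ± 0.12, adjusted p = 0.000913) and lower at the final step (-0.43 ± 0.14, adjusted p = 0.0329). That fall was not called without naive replicate 2 or 3, CpG replicate 2 or 3 or TLR replicate 1, and was -0.27 without the last of these. Lat2 (NTAL), an adaptor that resembles LAT of T cells, was lower at the final step (-0.58 ± 0.18, adjusted p = 0.0321), a call lost without CpG replicate 1 or 2 or TLR replicate 1. Its exons share 952 bases with Rfc2 on the opposite strand.

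All 6 enzymes and exchange factors were called lower at the final step, 4 of them after no call with CpG. Rasgrp3, the exchange factor that turns diacylglycerol into Ras activity and whose promoter is among those printed, had 251, 338 and 307 CPM in the naive libraries, 271, 381 and 291 CPM in the CpG libraries and 35.3 and 48.2 CPM in the TLR libraries. Naive and CpG libraries overlapped (log2 fold change 0.08 ± 0.18, adjusted p = 0.749), and the TLR libraries were 7.53-fold below CpG (log2 fold change -2.91 ± 0.22, adjusted p = 1.51e-05), the steepest fall among the 20 activators. Plcg2, the phospholipase at the centre of the calcium branch, had 498, 606 and 596 CPM in the naive libraries, 529, 632 and 569 CPM in the CpG libraries and 192 and 241 CPM in the TLR libraries, with overlap between naive and CpG and a 2.66-fold fall at the final step (log2 fold change -1.41 ± 0.16, adjusted p = 0.000128). Vav2, an exchange factor for small GTPases, had 256, 245 and 246 CPM in the naive libraries, 277, 243 and 277 CPM in the CpG libraries and 138 and 104 CPM in the TLR libraries. It was 2.19-fold lower at the final step (log2 fold change -1.13 ± 0.14, adjusted p = 0.000251).

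The phosphoinositide 3-kinase subunits diverged. Pik3r1, which encodes the regulatory subunit p85 alpha, had 176, 188 and 174 CPM in the naive libraries, 91.2, 96.8 and 106 CPM in the CpG libraries and 34.9 and 42.0 CPM in the TLR libraries. It fell at both steps (-0.87 ± 0.11 and -1.35 ± 0.13 on the log2 scale), to 4.67-fold below naive (log2 fold change -2.22 ± 0.13, adjusted p = 1.04e-06). Pik3cd, the catalytic subunit p110 delta of lymphocytes, stayed between 513 and 773 CPM in all 8 libraries. Its rise with CpG (0.35 ± 0.12, adjusted p = 0.0337) was not called without any 1 of the naive replicates or CpG replicate 1. The fall at the final step (-0.40 ± 0.13, adjusted p = 0.0383) was not called without naive replicate 2 or 3, CpG replicate 1 or either TLR replicate. Vav1, the haematopoietic member of the Vav family, had 345 to 365 CPM in naive, 376 to 431 CPM in CpG and 250 and 310 CPM in TLR libraries. It was called lower at the final step (-0.51 ± 0.13, adjusted p = 0.0128), a call lost without TLR replicate 1 (log2 fold change -0.37). Its call against naive cells (-0.34 ± 0.13, adjusted p = 0.0477) was lost in 9 of 18 alternative analyses, among them those without any 1 naive replicate, CpG replicate 2 or 3 or TLR replicate 1, and was -0.19 without the last of these.

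On the route to NF-kB, 2 of 4 members were lower at the final step, with a median log2 fold change of -0.56. Malt1, the protease of the complex with BCL10, had 351, 416 and 399.7 CPM in the naive libraries, 206, 191 and 185 CPM in the CpG libraries and 143 and 171 CPM in the TLR libraries. Its fall came with CpG, 2.01-fold (log2 fold change -1.0 ± 0.12, adjusted p = 0.000141), and the next step was not called (log2 fold change -0.30 ± 0.13, adjusted p = 0.0982), although the TLR libraries lay below all CpG libraries. Bcl10, its adaptor partner, ranged from 102 to 133 CPM in naive, 89.2 to 111 CPM in CpG and 83.0 to 94.8 CPM in TLR libraries, and was called in neither step. Against naive cells it was called lower (-0.41 ± 0.15, adjusted p = 0.0364), which was not kept without naive replicate 2 or 3 or either TLR replicate. Prkcb, the protein kinase C of this route and a target of PMA, ranged from 441 to 502 CPM in naive, 520 to 662 CPM in CpG and 304 to 309 CPM in TLR libraries. The fall at the final step (log2 fold change -0.96 ± 0.14, adjusted p = 0.000559) exceeded the rise before it (0.34 ± 0.12, adjusted p = 0.0432), and the rise was not called when any 1 library other than CpG replicate 1 was left out. Prkcd, the isoform linked to B cell tolerance and classed here as dual, had 415, 457 and 483 CPM in the naive libraries, 339, 306 and 284 CPM in the CpG libraries and 161 and 192 CPM in the TLR libraries. It fell at both steps (-0.54 ± 0.12 and -0.81 ± 0.14 on the log2 scale, adjusted p = 0.00539 and 0.00148).

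All 6 inhibitory receptors fell at least 2-fold at the final step, with a median log2 fold change of -2.04 that did not move when Lair1, at 0 counts, was set to its bound. Over 3 days of CpG, 1 was higher, 3 were lower and 2 were not called. Cd22, the sialic acid binding receptor that recruits SHP-1, had 1945, 2126 and 1904 CPM in the naive libraries, 2627, 2226 and 1865 CPM in the CpG libraries and 818 and 938 CPM in the TLR libraries. It was not called with CpG (0.17 ± 0.15) and fell 2.55-fold afterwards (log2 fold change -1.35 ± 0.17, adjusted p = 0.000259). Cd72, a lectin-like receptor that also recruits SHP-1, had 397, 449.6 and 474 CPM in the naive libraries, 431, 661 and 434 CPM in the CpG libraries and 108 and 150.4 CPM in the TLR libraries. It fell 3.94-fold (log2 fold change -1.98 ± 0.23, adjusted p = 0.000154). Of its exon bases 1423 lie opposite Tesk1, which was also counted. Reads in the shared bases may have been set aside as ambiguous (1.29% to 2.15% of a file's total), so Cd72 may be counted only in part. The size of this effect was not tested.

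Fcgr2b (FcγRIIB), which recruits SHIP-1 when immune complexes bind it together with the receptor, was the inhibitory receptor that rose. It had 189, 187 and 196 CPM in the naive libraries, 719.8, 591 and 474 CPM in the CpG libraries and 186 and 208 CPM in the TLR libraries. The rise with CpG was 3.12-fold (log2 fold change 1.64 ± 0.15, adjusted p = 3.61e-05) and the fall that followed 3.03-fold (log2 fold change -1.60 ± 0.18, adjusted p = 0.000111), which left the TLR libraries across the naive range (0.05 ± 0.17). Because Cd79a fell as well, reads of Fcgr2b per read of Cd79a were 0.143 ± 0.013 in naive, 0.448 ± 0.041 in CpG (n = 3 each) and 0.362 ± 0.037 in TLR libraries (n = 2). They remained above every naive library at the final step.

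Siglecg (Siglec-G), the second sialic acid binding inhibitor and the main one of B-1 cells, fell at both steps. It had 1043, 1017 and 1125 CPM in the naive libraries, 602, 383 and 411 CPM in the CpG libraries and 104 and 112 CPM in the TLR libraries. It was 2.28-fold lower with CpG (log2 fold change -1.19 ± 0.17, adjusted p = 0.000433) and 4.30-fold lower again at the final step (log2 fold change -2.11 ± 0.20, adjusted p = 5.23e-05). Pirb, a paired immunoglobulin-like receptor that binds MHC class I, had 91.1, 79.8 and 84.1 CPM in the naive libraries, 74.7, 59.3 and 51.7 CPM in the CpG libraries and 4.13 and 5.32 CPM in the TLR libraries. Its first fall was modest (-0.46 ± 0.15, adjusted p = 0.031) and was not called without any 1 naive replicate or CpG replicate 2 or 3. The second was 13.0-fold (log2 fold change -3.71 ± 0.21, adjusted p = 5.55e-06). Pirb has close copies in the Pira genes, so that its reads may be counted only in part.

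Lair1, an inhibitory receptor for collagens, was the lowest member. It had 24.2, 6.46 and 6.63 CPM in the naive libraries, 1.42, 2.30 and 2.13 CPM in the CpG libraries and 0 and 0 CPM in the TLR libraries. The CpG libraries were below all naive libraries (log2 fold change -2.66 ± 0.55, adjusted p = 0.00456), but naive replicate 1 stood well above the other naive libraries, and the log2 fold change was -1.75 without it. That library also held the highest sum of macrophage and monocyte markers (1243 CPM, compared with 304 and 177 CPM). All 12 of these markers were called lower with CpG, for some of them a call largely given by the filter. The part of these cells in the Lair1 values was not tested. The TLR libraries had 0 counts, compared with 104 in the CpG and 720 in the naive libraries. Taking 3 counts over the TLR group as its limit, Lair1 was at least 24.4-fold lower than in CpG and at least 152-fold lower than in naive cells. Naive replicate 1 held 464 of the 720 naive counts, and without it the second limit was 80.8-fold.

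The inhibitory enzymes fell together at the final step after diverging with CpG. Cblb, the ubiquitin ligase that marks activated signalling proteins for degradation, had 138, 172 and 156 CPM in the naive libraries, 354, 321 and 399 CPM in the CpG libraries and 82.9 and 103 CPM in the TLR libraries. It rose 2.30-fold (log2 fold change 1.20 ± 0.14, adjusted p = 0.000113) and then fell 3.85-fold (log2 fold change -1.94 ± 0.16, adjusted p = 2.32e-05), to below its naive level (-0.74 ± 0.16, adjusted p = 0.00229). Inpp5d (SHIP-1), the lipid phosphatase that removes the product of phosphoinositide 3-kinase, took the other course, with 403, 442 and 410.3 CPM in the naive libraries, 262, 248 and 231 CPM in the CpG libraries and 100.2 and 104 CPM in the TLR libraries. It fell at both steps, 4.10-fold in all (log2 fold change -2.04 ± 0.12, adjusted p = 1.12e-06). Reads of Inpp5d per read of Pik3cd were 0.785 ± 0.035 in naive, 0.364 ± 0.024 in CpG (n = 3 each) and 0.198 ± 0.005 in TLR libraries (n = 2), with no overlap between groups. Ptpn6 (SHP-1), the phosphatase of CD22 and CD72, had 1014, 1283 and 1228 CPM in the naive libraries, 1008, 847 and 752 CPM in the CpG libraries and 374 and 492 CPM in the TLR libraries. The change with CpG missed the threshold (log2 fold change -0.44 ± 0.16, adjusted p = 0.0511), and passed it in 12 of 18 alternative analyses. The fall at the final step was 2.01-fold (log2 fold change -1.0 ± 0.19, adjusted p = 0.00224). Csk, the kinase that switches off Src family kinases, had the smallest change of the 10 inhibitors at both steps, from 813 to 953 CPM in naive and 816 to 932 CPM in CpG to 503 and 586 CPM in TLR libraries (log2 fold change -0.68 ± 0.14, adjusted p = 0.00403).

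Set side by side, activators and inhibitors both fell at the final step. The inhibitors had the larger median fall, the inhibitory receptors but not the inhibitory enzymes falling more than the activators. In TLR against CpG, all 10 inhibitors were called lower, 9 of them at least 2-fold, with a median log2 fold change of -1.77. Of the 20 activators 15 were called lower, 12 of them at least 2-fold, with a median of -1.24. The 6 inhibitory receptors had a median of -2.04 and the 4 inhibitory enzymes one of -1.14. The 5 members not called lower were all activators: Fyn and Cd81 were higher, and Pik3ap1, Bcl10 and Malt1 were not called. All 6 dual-role genes were called lower, with a median of -0.78. The activators' median was thus above that of the inhibitors by 0.53, a difference that shrank to 0.23 when the dual-role genes were counted as inhibitors. In CpG against naive, 5 activators were higher and 6 lower (median 0.02), compared with 2 and 4 of the inhibitors (median -0.24), a difference of 0.26. In TLR against naive, 16 activators and 9 inhibitors were lower, with medians of -1.30 and -1.60 (-2.53 for the inhibitory receptors and -1.09 for the inhibitory enzymes). That difference of 0.30 became 0.16 without TLR replicate 1, 0.48 without TLR replicate 2 and 0.0949 with the dual-role genes among the inhibitors. These differences are descriptions of lists whose members were chosen with results known, and no test was made of them.

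By sums of reads too, the inhibitors were lowest relative to the activators in the TLR libraries. The inhibitors summed to 6057, 6707 and 6537 CPM in naive, 7011, 6155 and 5488 CPM in CpG and 2280.1 and 2698 CPM in TLR libraries. The activators summed to 11975, 13006 and 12910 CPM, 14394, 12770.1 and 12969 CPM, and 5942 and 6440 CPM. Inhibitor reads per activator read were 0.509 ± 0.006 in naive (SD, n = 3), 0.464 ± 0.036 in CpG (n = 3) and 0.401 ± 0.025 in TLR libraries (n = 2), and the groups' ranges did not overlap, although CpG replicate 3 (0.423) lay close to TLR replicate 2 (0.419). The averages of log2(CPM + 1), which weight each gene equally, differed between the classes most in the TLR libraries. The inhibitors' mean minus the activators' mean was -0.38 ± 0.09 in naive, -0.45 ± 0.10 in CpG and -1.06 ± 0.06 in TLR libraries. Without Lair1, the lowest gene, it was 0.16 ± 0.02, 0.29 ± 0.13 and -0.34 ± 0.07. From naive to CpG this last measure thus went up on average, with overlap between libraries, while the ratio of sums went down.

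**Figure D4:**
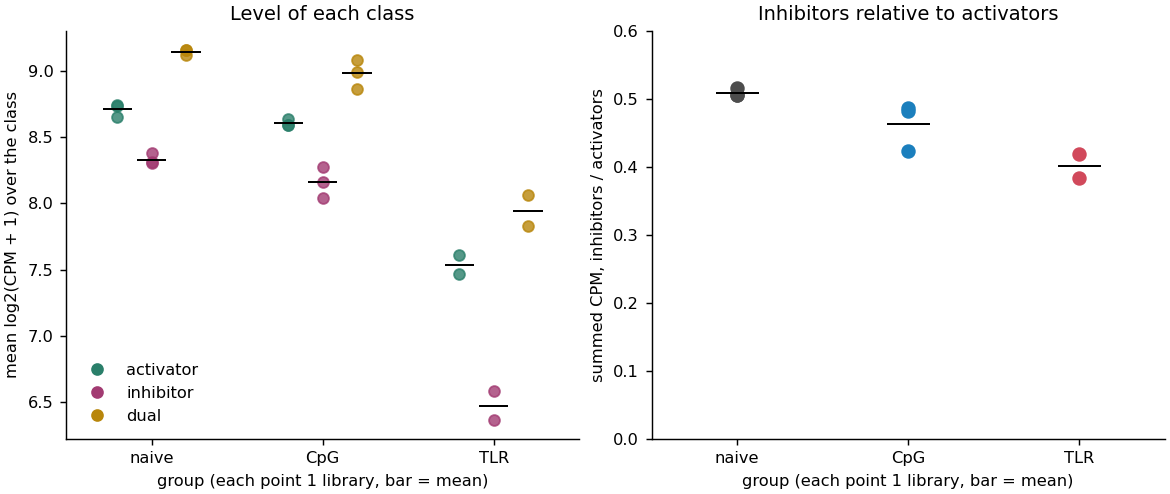
Left, mean of log2(CPM + 1) over the genes of each class in each library; right, summed CPM of the 10 inhibitors divided by that of the 20 activators in each library. Points are libraries (3 naive, 3 CpG, 2 TLR) and bars are group means; the ratio on the right went from 0.509 in naive to 0.464 in CpG and 0.401 in TLR libraries.

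By their courses over both steps, 14 members were not called with CpG and fell at the final step: 7 activators (Cd79a, Cd79b, Blnk, Plcg2, Vav1, Vav2 and Rasgrp3), 4 inhibitors (Cd22, Cd72, Ptpn6 and Csk) and 3 dual-role genes (Lyn, Bank1 and Lat2). A further 11 fell at both steps: Btk, Blk, Pik3r1, Dapp1 and Ptprc among the activators, Inpp5d, Siglecg, Pirb and Lair1 among the inhibitors, and Prkcd and Cd37. A rise with CpG followed by a fall was shared by 6 genes: Syk, Pik3cd, Prkcb, Fcgr2b, Cblb and Grb2. Each of the other courses held 1 activator: Fyn rose at both steps, Pik3ap1 rose and held, Malt1 fell and was then not called, Cd81 was not called with CpG and rose at the final step, and Bcl10 at neither.

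Levels per kilobase of exon put the signal chains first in every group. Cd79b had 1432 ± 48.7 CPM per kilobase (SD, n = 3) in naive cells, followed by Cd79a with 918 ± 76.0, Cd37 with 555 ± 10.8, Ptpn6 with 419 ± 50.8 and Cd22 with 395 ± 23.5. The last pair did not differ beyond their spread. In TLR cells Cd79a (374 ± 8.38) and Cd79b (351 ± 14.0, n = 2 each) led, and Cd22 (174 ± 16.8), Pik3ap1 (164 ± 14.5), Grb2 (162 ± 26.7) and Ptpn6 (155 ± 29.7) followed within their spread. Pik3ap1 moved from place 21 of 36 in naive to place 9 in CpG and place 4 in TLR cells, and Fyn from place 32 to 27 and 15. Blk went the other way, from place 6 to 22 and 28, and Siglecg from place 8 to 17 and 23. Lair1 was last in each group.

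Beyond the members, 114 of 116 listed genes of the pathway's branches were found and tested. At the final step 43 of them were lower and 20 higher (37.7% and 17.5%), where 19.8% of all tested genes were lower and 19.0% higher. The share of falls was smaller than among the members (86.1%), and the median log2 fold change of these other genes was -0.18. Cr2 (CD21), the complement receptor of the co-receptor complex, lost most of its level with CpG (log2 fold change -3.76 ± 0.27, adjusted p = 8.38e-06), with 1452, 1481 and 1305 CPM in the naive libraries, 76.6, 149 and 85.9 CPM in the CpG libraries and 80.7 and 116 CPM in the TLR libraries. It was not called at the final step (-0.08 ± 0.27). Further kinases fell in 5 of 6 cases (median -1.50), while the medians of the Ras and MAP kinase branch (0.16, 4 higher and 3 lower of 13) and of the NF-kB branch (0.14, 2 higher and 3 lower of 11) lay near that of all genes.

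The steepest falls at the final step among these genes met the members' in size. The exchange factor Rasgrp2, a relative of Rasgrp3, had 575, 552 and 647 CPM in the naive libraries, 398, 277 and 219 CPM in the CpG libraries and 31.7 and 42.6 CPM in the TLR libraries (log2 fold change -3.00 ± 0.27, adjusted p = 3.12e-05). Rasgrp1, of the same family, reached 16.1-fold below naive (log2 fold change -4.01 ± 0.17, adjusted p = 2.40e-07). Fcrla, an Fc receptor-like protein of B cells, fell 11.5-fold (log2 fold change -3.52 ± 0.17, adjusted p = 2.67e-06) and was 17.4-fold below naive. Ceacam1, an inhibitory receptor that recruits SHP-1, fell 9.30-fold (log2 fold change -3.22 ± 0.20, adjusted p = 6.02e-06). Of 29 further inhibitors tested, 10 were lower and 2 higher at the final step (median -0.33). Cd5 had at most 3.60 CPM in any library and was lower with CpG (log2 fold change -3.60 ± 0.57, adjusted p = 0.000775), with 14 counts in the CpG and 2 in the TLR libraries. It is also a T cell gene, and the T cell markers fell with it (Cd3e by 4.34 and Cd4 by 4.22 on the log2 scale, each at most 4.22 CPM in naive libraries). The part of T cells in the Cd5 values was not tested. Cd5, Cd3e and Cd4 passed the low-count filter only through naive libraries, so their calls as lower were largely given by it. Ubash3b, a phosphatase that acts on SYK family kinases, rose 4.92-fold with CpG (log2 fold change 2.30 ± 0.13, adjusted p = 2.10e-06) and held that level.

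Genes that respond early to receptor signals and to PMA with ionomycin went against the members. Of 16 such genes, 10 were called higher at the final step, each at least 2-fold, and 1, Cd69, was lower, with a median log2 fold change of 1.69. Of all tested genes, 19.0% were called higher and 19.8% lower. Without TLR replicate 1 the number of other pathway genes called higher fell from 20 to 13. Egr1, a transcription factor switched on by MAP kinases, had 55.4, 51.6 and 89.3 CPM in the naive libraries, 66.4, 54.9 and 80.5 CPM in the CpG libraries and 229.7 and 399.9 CPM in the TLR libraries (log2 fold change 2.23 ± 0.29, adjusted p = 0.000255). Nr4a1 (Nur77), a nuclear receptor often used as a reporter of receptor signalling, had 62.0, 55.1 and 69.7 CPM in the naive libraries, 44.2, 63.4 and 43.9 CPM in the CpG libraries and 202 and 167 CPM in the TLR libraries (log2 fold change 1.87 ± 0.18, adjusted p = 5.12e-05). The MAP kinase phosphatases Dusp4 and Dusp5 rose 5.89-fold (log2 fold change 2.56 ± 0.24, adjusted p = 4.75e-05) and 5.47-fold (log2 fold change 2.45 ± 0.30, adjusted p = 0.000201). In the calcium branch, 8 of 14 genes were lower and 1 higher (median -0.63), among them Nfatc1, with 312, 325 and 316 CPM in the naive libraries, 230.2, 160.5 and 189 CPM in the CpG libraries and 57.8 and 51.8 CPM in the TLR libraries (log2 fold change -1.82 ± 0.16, adjusted p = 3.29e-05).

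**Figure D5:**
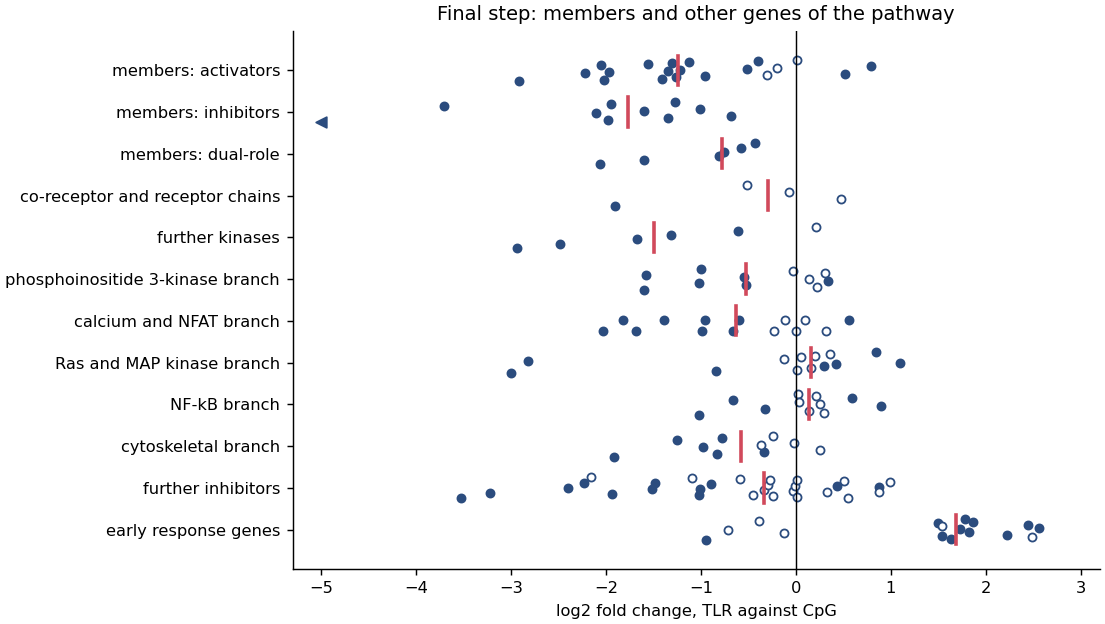
Log2 fold change in TLR against CpG for the 36 members by class and for 114 other pathway genes by branch; each point is a gene, filled where called, and red bars are medians. Members lie mostly left of 0 (medians -1.24, -1.77 and -0.78), early response genes right of it (median 1.69); Lair1, with 0 counts in the TLR libraries, is drawn as a triangle at the left edge.

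With CpG the other pathway genes showed 18 rises (15.8%) and 44 falls (38.6%), where 23.5% of all tested genes were higher and 21.9% lower (median -0.20 for the pathway genes). The largest rises were those of Cd83, an activation marker (log2 fold change 2.78 ± 0.14, adjusted p = 1.10e-06), Ubash3b, and Nfkbia, the inhibitor and target of NF-kB (log2 fold change 1.89 ± 0.16, adjusted p = 2.25e-05). The largest falls were those of Fosb (log2 fold change -6.09 ± 1.03, adjusted p = 0.00116) and Fos (log2 fold change -5.71 ± 0.70, adjusted p = 0.000184), both AP-1 subunits, and of Cr2. Fosb in the naive libraries ranged from 6.31 to 143 CPM and Fos from 53.5 to 259 CPM, so their naive levels varied widely. In TLR against naive cells, 28 were higher (24.6%) and 58 lower (50.9%), where 31.6% of all tested genes were higher and 29.7% lower (median -0.50 for the pathway genes). Dusp4 (log2 fold change 3.43 ± 0.25, adjusted p = 3.22e-06), Cd83 (log2 fold change 2.65 ± 0.15, adjusted p = 7.12e-07) and Ubash3b (log2 fold change 2.31 ± 0.14, adjusted p = 9.96e-07) had the largest rises, and Fos (log2 fold change -4.17 ± 0.75, adjusted p = 0.000935), Fcrla (log2 fold change -4.12 ± 0.17, adjusted p = 2.16e-07) and Rasgrp1 the largest falls.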

How the data were processed

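Poly(A) RNA was sequenced with a strand-specific kit in 8 libraries, per the labels' protocols. The submitters' processing notes name STAR, HTSeq, edgeR and build mm9, without versions, and no annotation release. The authors deposited raw counts of reads per gene, 1 file per library, and the file names say that the counting ignored strand. The 5 summary lines of each file were set apart. Symbols came from GENCODE M21 by identifier (32860 of 37583 matched; the rest held at most 1.01% of any library's counts).

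The analysis used edgeR 4.0.16 in R 4.3.3: filterByExpr, TMM factors, a quasi-likelihood fit of group means to all 8 libraries together (common dispersion 0.0421), and Benjamini-Hochberg adjustment over the 13964 genes tested. Fold changes had a prior count of 0.125, their SE was derived from the F statistic (absolute log2 fold change over its root), and CPM are scaled by the TMM factors. Both TLR comparisons rest on 2 libraries. Exon lengths, overlaps of exons and promoters came from GRCm38, not the files' build. Exons of 8 of the 36 genes overlap another gene's on the opposite strand: Cd81, Lyn, Cd22, Cd72, Fcgr2b, Ptpn6, Lat2 and Cd37.

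The members, their classes and all lists were chosen with earlier results of these data known. Values in every library are given for members called with a change of at least 2-fold in any comparison, the inhibitory receptors and both signal chains, and for Cd81, added after its values were seen. Of the other pathway genes, the 3 largest called rises and falls per comparison above a mean of 8 CPM are named, with Cr2, Nfatc1, Cd5, Egr1 and Nr4a1; a few genes of the lists are not reported here. Lilrb4a and Sh2d1b1 were not found by symbol. The listing of the 10 members with at least 20 CG dinucleotides and the ratios of reads between genes were chosen after values were seen. Each result was recomputed with DESeq2 1.42.0, with RLE factors or library size alone, without immunoglobulin genes, without a filter or with a minimum mean of 1 CPM, within the 2 groups of a comparison, with a block for the replicate number, with a term for the library prefix, in the libraries of the common prefix, other classes for the dual-role genes, and with each library left out in turn. The fit was also run on simulated data with a constant dispersion, in which CpG and TLR shared the same changes. That run therefore could not probe the recovery of changes at the final step. Intervals and limits from counts cover counting error only.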

Additional observations from a re-analysis of the deposited data

How the results depend on the processing

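No member's change reversed under any alternative among those called. Of 648 member results per comparison over the alternatives (36 genes, 18 settings), 28 lost and 19 gained a call for CpG against naive, 28 lost and 0 gained one for TLR against CpG, and 13 lost and 8 gained one for TLR against naive. They belong to Bcl10, Cd81, Fyn, Grb2, Lat2, Lyn, Pik3cd, Pirb, Prkcb, Ptpn6, Ptprc and Vav1. The cause of these changes was not tested. Members higher in TLR against CpG numbered 1 in the libraries of the common prefix and 0 to 2 with a library left out (0 without TLR replicate 1), and other pathway genes higher numbered 13 to 19. With the dual-role genes counted as inhibitors, the activators' median exceeded the inhibitors' by 0.23 in TLR against CpG and by 0.0949 in TLR against naive; with a library left out, the second value ran from 0.16 to 0.48. In the libraries of the common prefix, without TLR replicate 1 and without TLR replicate 2, 1 TLR library remained, assumed to vary like the other groups. The replicate number as a block left the members called at 8 higher and 13 lower, 2 higher and 31 lower, and 3 higher and 28 lower in the 3 comparisons, and all genes called at 6665, 5541 and 8602 (6347, 5417 and 8551 without it). With the block, the activator minus inhibitor differences were 0.24, 0.55 and 0.30 and the other pathway genes 19 higher and 45 lower, 21 and 44, and 31 and 56. The block brought Cd81 in CpG against naive (adjusted p = 0.0499) and Grb2 in TLR against naive (adjusted p = 0.0425) past edgeR's threshold and Vav1 in TLR against naive (adjusted p = 0.0557) out of it, and changed no other member's call. Deviations of same-numbered naive and CpG libraries correlated by 0.16, 0.104 and 0.004, and those of CpG and TLR by 0.325 and 0.297 (2 pairs that share 1 TLR difference); since 1 of the 3 naive and CpG pairs was near 0 and the labels name no shared source, the numbers were not taken as pairs; naive replicate 3 correlated more with CpG replicate 2 (0.147) than with its own number. DESeq2 called 31 members lower and 2 higher in TLR against CpG. Other scaling factors moved the median of all genes by at most 0.053 on the log2 scale. Among the members, Lair1 alone had a group (TLR) at 0 counts, so that its change there is limited by depth.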
